A study of Mus musculus with 232 samples.

Results

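The naive pluripotency transcription factors described here were 10 genes chosen by name from textbook knowledge of mouse embryonic stem cells (ESCs), namely Nanog, Esrrb, Klf2, Klf4, Klf5, Tfcp2l1, Tbx3, Prdm14, Zfp42 and Nr0b1. All 10 were among the 42493 genes in the files, and all 10 were among the 11186 genes with a mean of at least 5 counts per cell. Single mouse ESCs were grown with serum, leukaemia inhibitory factor (LIF) and 2i, the inhibitors PD0325901 of MEK and CHIR99021 of GSK3, and were captured 24 h after transfection on Fluidigm C1 circuits. The files held 232 sequencing runs of 182 cells. Of these, 60 were mock-transfected Dgcr8-/- cells, 48 were Dgcr8-/- cells with a let-7 mimic, 58 were Dgcr8-/- cells with a miR-294 mimic and 16 were wild-type cells, whose titles carry the name V6.5. Dgcr8 encodes a subunit of the Microprocessor, so Dgcr8-/- cells lack most mature miRNAs, and a mimic returns 1 miRNA to them. The labels name the same transfection reagent for all 4 conditions and give no animal or separate culture. The sources name the let-7 mimic differently, as let-7i in the sample titles, let-7b in the series description and let-7c in the methods, and it is called let-7 here.

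In mouse ESCs, the core factors Oct4 (Pou5f1) and Sox2 act together with a wider circle of factors that mark the naive state, the state of the early epiblast. LIF acts through Stat3 on Klf4, inhibition of GSK3 frees Esrrb, Tfcp2l1 and Nanog from repression by Tcf7l1, and inhibition of MEK lifts the ERK signal that otherwise lowers Nanog and Klf2. Several of these factors are known to vary from cell to cell, Nanog and Zfp42 (Rex1) among them, above all in serum without 2i. let-7 is abundant in differentiated cells, and miR-294 belongs to the miR-290 family that is abundant in ESCs.

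The mimics are shown with their seed in capitals (bases 2 to 8, the part that pairs with a target), because the seed decides where each miRNA can pair with the transcripts of the 10 genes. The sequences are from RefSeq on GRCm38.p6. The 3 let-7 names share 1 seed, and that of miR-294 differs.
mmu-let-7b-5p (chr15:85707325-85707346, plus strand): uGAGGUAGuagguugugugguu
mmu-let-7c-5p (chr16:77599672-77599693, plus strand): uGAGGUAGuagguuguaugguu
mmu-let-7i-5p (chr10:122985698-122985719, minus strand): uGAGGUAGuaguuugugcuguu
mmu-miR-294-3p (chr7:3220691-3220712, plus strand): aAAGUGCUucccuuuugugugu

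The transcripts of the 10 genes in GENCODE M21 were searched on the sense strand for the 7 bases that pair with each seed, CTACCTC for let-7 and AGCACTT for miR-294. The longest 3′ UTR of 10.1% of 21193 protein-coding genes held CTACCTC and that of 15.3% held AGCACTT. Among the 10 genes, 1 had a let-7 match in a 3′ UTR (Esrrb), 1 had a miR-294 match in a 3′ UTR (Tfcp2l1) and 1 had a let-7 match in its coding sequence (Tbx3). The 3 sites are shown with the match in capitals, since they were the matches to these 2 seeds in the coding sequence and 3′ UTR of the 10 genes.
Esrrb, 3′ UTR, let-7 match (chr12:86519682-86519688, plus strand): tgcttcctgcccCTACCTCagccag
Tfcp2l1, 3′ UTR, miR-294 match (chr1:118683205-118683211, plus strand): gctcgatggccgAGCACTTcccaac
Tbx3, coding sequence, let-7 match (chr5:119672076-119672082, plus strand): tatcatcccttcCTACCTCaccggg
A match is a description of these letters and not a shown site of action. Only transcripts with a coding sequence were searched. The match was found in 3 of the 6 annotated transcripts of Esrrb, 1 of 2 of Tfcp2l1 and 3 of 6 of Tbx3. Among genes with a 3′ UTR of like length to that of Esrrb (2563 bases), 15.3% held CTACCTC, and among those of like length to that of Tfcp2l1 (7734 bases), 56.5% held AGCACTT. Nanog, with a 3′ UTR of 1078 bases, and the 6 other genes held neither.

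Before the levels, the limits of the cells have to be given. Each condition was captured on 1 C1 circuit, so each condition was treated as 1 sample and chip and condition cannot be told apart. No test across cells was run, an SD is the spread over cells, and an interval of a share covers only the drawing of cells within a condition. Total counts were 513521 to 3979274 per cell and cells had 6119 to 10877 genes counted. Of 50 cells sequenced in 2 runs, 2 (1 let-7 and 1 wild-type) had runs that did not match each other (r = 0.484 and 0.4996, against 0.967 to 0.988 in the other 48). In addition, 4 pairs of cells (3 let-7 and 1 miR-294) were as alike as 2 runs of 1 cell (r = 0.986 to 0.989, against at most 0.715 for other pairs). The 6 cells concerned (1 of each pair and the 2 mismatched ones) were kept, and results without them are from the other 176 cells. Counts of the genes known to answer to each mimic were lower in its cells, with a mean normalized count of 165 for the let-7 target Trim71 after let-7 against 713 in mock cells, and 58.3 for the miR-294 target Cdkn1a after miR-294 against 314. The study's authors had already removed transfected cells without lower targets. Dgcr8 itself averaged 51.5 normalized counts in mock and 118 in wild-type cells, but gene counts include exons outside a deletion, so this is no check of the genotype. Of the core factors, Sall4 was counted in all 60 mock cells and Pou5f1 in 59, and 8 fibroblast genes gave a count in only 1.67% of gene and cell combinations in mock cells and 1.30% in let-7 cells.

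**Figure D1:**
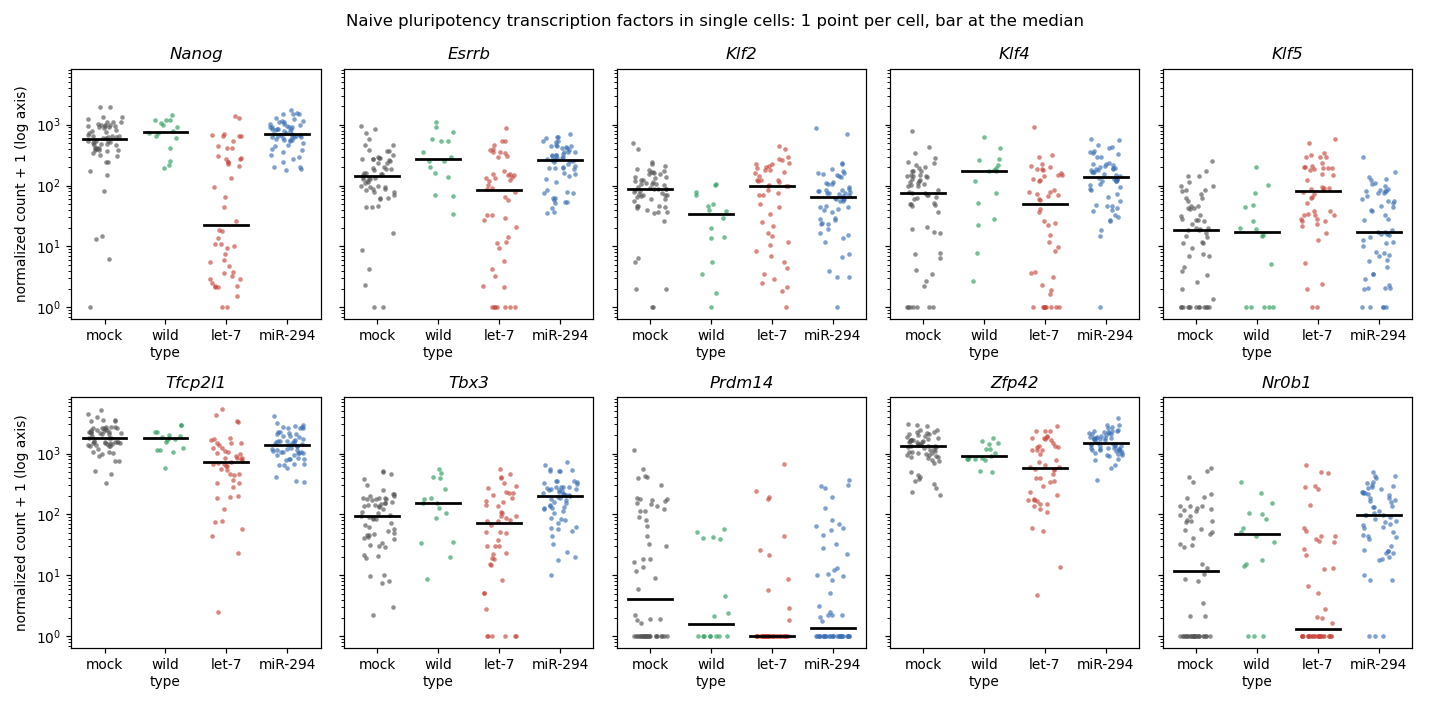
Normalized count plus 1 (log axis) of each of the 10 genes in every cell, with 1 point per cell, by condition (60 mock, 16 wild-type, 48 let-7 and 58 miR-294 cells), and a bar at the median. Nanog spread over 3 orders of magnitude in let-7 cells with a median of 21.6, Klf5 was higher in let-7 cells than in the others, and Prdm14 and Nr0b1 were at 0 in many cells.

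Levels are given as normalized counts, which are counts divided by the size factor of the cell and compare cells but not genes. FPKM, which also divides by transcript length, was used to compare genes. In mock cells, Zfp42 had the highest FPKM of the 10 (542 ± 278, SD, n = 60), followed by Nanog (212 ± 133) and Tfcp2l1 (151 ± 71.3). The other 7 averaged 14.4 (Klf5) to 39.4 (Klf2) FPKM. Zfp42 was also first in the other 3 conditions. Nanog and Tfcp2l1 held the next places everywhere, but in let-7 cells Tfcp2l1 (69.5 ± 70.2 FPKM, n = 48) came before Nanog (64.6 ± 91.2 FPKM). Their spreads overlapped. Klf5, the last of the 10 in mock cells, came next after these 3 in let-7 cells at 48.9 ± 51.8 FPKM.

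Nanog, a homeodomain factor that stabilizes self-renewal, is at chr6:122707489-122714633 (GRCm38, plus strand). Its normalized count in mock cells ran from 0 to 1978 with a median of 575 (n = 60). In wild-type cells it ran from 195 to 1429 (median 758, n = 16) and in miR-294 cells from 182 to 1731 (median 689, n = 58). In let-7 cells it ran from 0 to 1389.6, but the median was 21.6 and the lower quartile 2.71 (n = 48). The lower part of the let-7 cells thus lay under nearly all cells of the other conditions, while the upper part lay among them. A Nanog level of at least 100 normalized counts was found in 20 of 48 let-7 cells (41.7%), against 55 of 60 mock cells (91.7%) and all 16 wild-type and 58 miR-294 cells. Nanog was nevertheless counted at least once in 46 of the let-7 cells (95.8%, exact 95% interval 85.7 to 99.5%). When every cell was thinned to 500000 counts, it was counted in 81.2% of let-7 cells and 98.3% of mock cells. The mean was 215 ± 324 in let-7 cells against 649 ± 416 in mock cells, a log2 ratio of -1.59. Without the 6 cells it was -1.50. The mean after miR-294 (758 ± 369.8) was above that in mock cells by 0.22 on the log2 scale, and that in wild-type cells was 784 ± 381. The means of mock, miR-294 and wild-type cells differed by less than the spread over the cells of each.

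Tfcp2l1, a grainyhead-like factor downstream of LIF and Wnt (chr1:118627945-118685168, plus strand), was counted in all 182 cells. Its normalized count in mock cells ran from 333 to 5181 (median 1813), in wild-type cells from 589 to 2975 (median 1773) and in miR-294 cells from 337 to 4087 (median 1365). In let-7 cells it ran from 1.498 to 5422 (median 714), and 13 of the 48 cells lay below the lowest mock cell. The mean was 999.8 ± 1103 in let-7 against 1989.5 ± 959.7 in mock cells, a log2 ratio of -0.99, just short of 2-fold. Relative to the median of all genes in that comparison, which was 0.18, it was -1.17. The mean after miR-294 was 1517 ± 791 (log2 ratio -0.39), and most of those cells lay below the mock median (41 of 58). Relative to the median of all genes, which was -0.26 in this comparison, the miR-294 ratio was only -0.13. The miR-294 match shown above was found in 1 transcript of Tfcp2l1, and whether that match acts in these cells was not tested.

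Esrrb, an orphan nuclear receptor repressed by Tcf7l1 (chr12:86361117-86521628, plus strand), was highest in wild-type cells, with 32.98 to 1096 normalized counts and a median of 275. In miR-294 cells it ran from 33.96 to 713 (median 261), in mock cells from 0 to 967 (median 142) and in let-7 cells from 0 to 885 (median 83.3). All 4 ranges overlapped. Esrrb was counted in every wild-type and miR-294 cell, in 58 of 60 mock cells and in 41 of 48 let-7 cells (85.4%, exact 95% interval 72.2 to 93.9%). The log2 ratio of means was -0.47 for let-7 against mock, 0.43 for miR-294 against mock and -0.96 for mock against wild type. Relative to the median of all genes, which was 0.35 in the last comparison, mock against wild type was -1.31.

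Nr0b1 (Dax1), an atypical nuclear receptor without a DNA-binding domain that partners Oct4 (chrX:86191764-86195947, plus strand), was at 0 in many mock and let-7 cells. It was counted in 36 of 60 mock cells (60%, exact 95% interval 46.5 to 72.4%), in 24 of 48 let-7 cells (50%, 35.2 to 64.8%), in 13 of 16 wild-type cells (81.2%, 54.4 to 95.95%) and in 55 of 58 miR-294 cells (94.8%, 85.6 to 98.9%). After thinning to 500000 counts the shares were 58.3%, 43.8%, 81.2% and 94.8% in the same order, so they followed sequencing depth little. Thinning does not cover transcripts lost before sequencing, so an on-off state of the gene was not shown. The median was 10.8 in mock (highest 585), 0.32 in let-7 (highest 639), 46.6 in wild-type (highest 343) and 96.1 normalized counts in miR-294 cells (highest 505). The mean was 137 ± 126 after miR-294 against 70.8 ± 123 in mock cells, a log2 ratio of 0.94, and 1.21 relative to the median of all genes, which was -0.26. The let-7 mean was 62.03 ± 143 (log2 ratio -0.19). Both the share of cells and the mean were thus higher after miR-294, although no miR-294 cell lay above the highest mock cell.

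**Figure D2:**
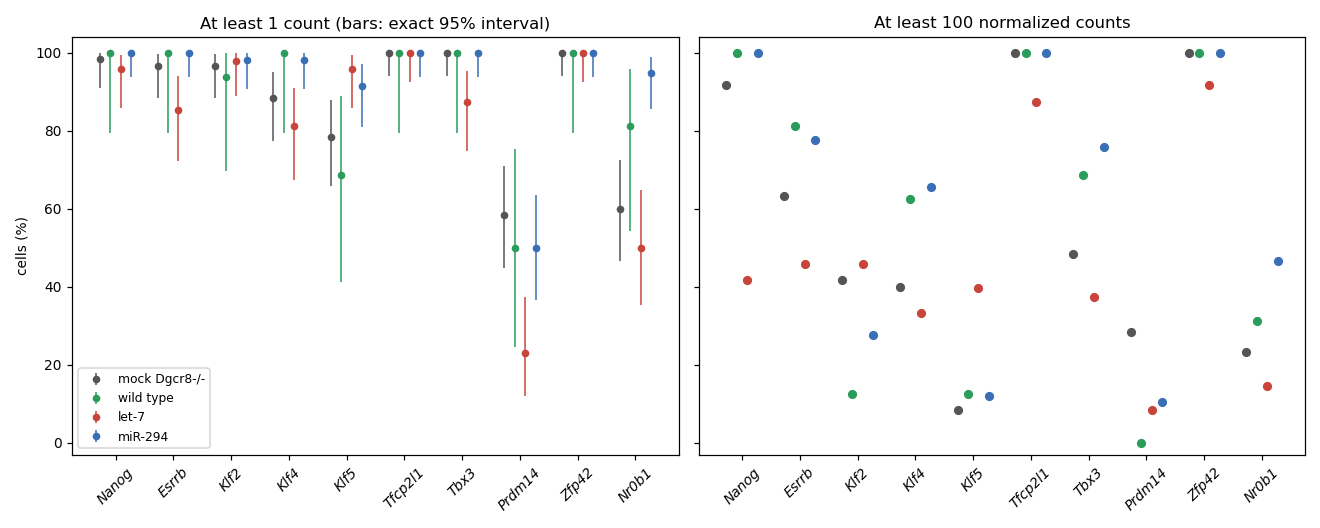
Left: share of cells (%) of each condition in which each of the 10 genes was counted at least once, with the exact 95% interval. Right: share of cells (%) with at least 100 normalized counts. The shares for Nr0b1 ran from 50% (let-7) to 94.8% (miR-294) and those for Prdm14 from 22.9% (let-7) to 58.3% (mock), while Nanog at 100 normalized counts or more was reached in 41.7% of let-7 cells.

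The 3 Krüppel-like factors Klf2, Klf4 and Klf5 can in part replace each other in self-renewal, and their levels were ordered differently over the conditions. Klf5 (chr14:99298691-99315036, plus strand) was higher in let-7 cells. Its normalized count ran from 0 to 576 there (median 80.01), from 0 to 255 in mock cells (median 17.6), from 0 to 201 in wild-type cells (median 16.5) and from 0 to 291 in miR-294 cells (median 16.03). Of the 48 let-7 cells, 41 lay at or above the mock median and 7 lay above the highest mock cell. The mean was 124 ± 130 against 35.5 ± 49.8 in mock cells, a log2 ratio of 1.78, or 1.75 without the 6 cells and 1.60 relative to the median of all genes. It was counted in 95.8% of let-7 cells, against 78.3% of mock, 68.8% of wild-type and 91.4% of miR-294 cells. The miR-294 mean (42.4 ± 53.8) and the wild-type mean (35.2 ± 53.2) were close to that of mock cells relative to their spread.

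Klf2 (chr8:72319033-72321656, plus strand), which is sensitive to ERK, ran from 0 to 502 normalized counts in mock cells (median 86.1) and from 0 to 105 in wild-type cells (median 32.8). In let-7 cells the range was 0 to 451 (median 97.4), and in miR-294 cells 0 to 874 (median 63.5). Of the 60 mock cells, 24 lay above the highest of the 16 wild-type cells. The mean was 102 ± 87.1 in mock and 37.7 ± 34.8 in wild-type cells, a log2 ratio of 1.42, or 1.07 relative to the median of all genes. Against mock, let-7 differed by 0.12 and miR-294 by -0.09, and the sign of both differences turned with another scaling.

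Klf4 (chr4:55527143-55532466, minus strand), a target of LIF and Stat3, had a median of 75.4 normalized counts in mock cells (0 to 773), 174 in wild-type (1.70 to 624), 48.3 in let-7 (0 to 912) and 138 in miR-294 cells (0 to 586). The log2 ratio was 0.69 for miR-294 against mock (means 169.9 ± 135 and 105 ± 126), -0.18 for let-7 against mock and -0.73 for mock against wild type. Klf4 was counted in 98.3% of miR-294 cells, 88.3% of mock cells and 81.2% of let-7 cells. Exact 95% intervals reached down to 90.8% in miR-294 cells and ran from 77.4 to 95.2% in mock and 67.4 to 91.1% in let-7 cells.

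Tbx3, a T-box factor that answers to LIF through PI3K and MAPK signals (chr5:119670669-119684724, plus strand), was in the same order as Klf4 and Esrrb for mock, let-7 and miR-294 cells. Its median was 203 normalized counts in miR-294 cells (9.02 to 716), 154 in wild-type (7.64 to 548), 94.3 in mock (1.21 to 513) and 72.1 in let-7 cells (0 to 557). It was counted in all cells of the first 3 conditions and in 42 of 48 let-7 cells. The log2 ratio of means was 0.83 for miR-294 against mock (223 ± 163 and 125 ± 117), 1.10 relative to the median of all genes, with 6 miR-294 cells above the highest mock cell. It was -0.10 for let-7 against mock and -0.67 for mock against wild type.

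Prdm14, which holds back FGF signalling and DNA methylation (chr1:13113457-13127163, minus strand), was the sparsest of the 10. It was counted in 35 of 60 mock cells (58.3%, exact 95% interval 44.9 to 70.9%), 8 of 16 wild-type cells (50%, 24.7 to 75.3%), 11 of 48 let-7 cells (22.9%, 12.03 to 37.3%) and 29 of 58 miR-294 cells (50%, 36.6 to 63.4%). The highest cell had 1126 normalized counts in mock, 55.96 in wild-type, 669 in let-7 and 371 in miR-294 cells, and the medians were 3.15, 0.59, 0 and 0.39. Means therefore rested on few cells, with 17 mock cells and 4 let-7 cells at 100 normalized counts or more. The log2 ratio of means was -1.59 for let-7 against mock (28.7 ± 107 and 88.3 ± 183), -1.28 for miR-294 against mock (35.9 ± 83.4) and 2.52 for mock against wild type (14.6 ± 21.9). Relative to the median of all genes, these ratios were -1.76, -1.01 and 2.17. The mock cell with 1126 normalized counts held 21.2% of the mock sum, and without it the ratios were -1.27, -0.96 and 2.20, so that miR-294 against mock was then under 2-fold. In the last comparison, 20 of 60 mock cells lay above the highest wild-type cell, while the medians were both near 0.

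Zfp42 (Rex1), a zinc-finger gene used as a reporter of the naive state (chr8:43295063-43306980, minus strand), was counted in all 182 cells. It ran from 209 to 3030 normalized counts in mock cells (median 1322), from 502 to 1833 in wild-type cells (median 901) and from 370 to 3853 in miR-294 cells (median 1468). In let-7 cells it ran from 3.80 to 2848 (median 581), with 14 of 48 cells below the lowest mock cell. The log2 ratio was -0.67 for let-7 against mock (853 ± 761 and 1355 ± 686), 0.26 for miR-294 against mock and 0.38 for mock against wild type. Of its 31-base stretches, 13.4% were shared with the pseudogene Zfp42-ps1, and 10.7% of those of Nanog were shared with other genes, so the counting could divide some reads. Nanog-ps1 was at 0 in all cells, but it shared only 4.6% of the Nanog stretches, and 1069 genes shared some. No level of Zfp42-ps1 was available. For the other 8 genes the shared part was at most 2.53%.

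Across all genes tested, 8.56% were at least 2-fold lower and 17.9% at least 2-fold higher in let-7 than in mock cells. Of the 10 factors, 2 were at least 2-fold lower (Nanog and Prdm14) and 1 at least 2-fold higher (Klf5), and 8 of 10 had a ratio below 0, beside 40.3% of all genes. Their median log2 ratio was -0.33 beside 0.18 for all genes. After miR-294, 18.7% of genes were at least 2-fold lower and 4.95% at least 2-fold higher than in mock cells. Of the factors, 1 was at least 2-fold lower (Prdm14) and none at least 2-fold higher, and 3 of 10 were below 0, beside 65.3% of all genes. Their median was 0.25 beside -0.26 for all genes. Between mock and wild-type cells, 8.73% of genes were at least 2-fold lower and 30.2% at least 2-fold higher in mock cells. None of the factors was at least 2-fold lower and 2 were at least 2-fold higher (Klf2 and Prdm14), with a median of -0.06 beside 0.35. With 10 genes, 1 gene is 10%, so these counts lay near the background shares, those lower after let-7 above it and the others below it. The 3 comparisons all use the mock cells, so their ratios are not independent of each other. In the 176 cells left without the 6, the factors past 2-fold were the same in each comparison.

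**Figure D3:**
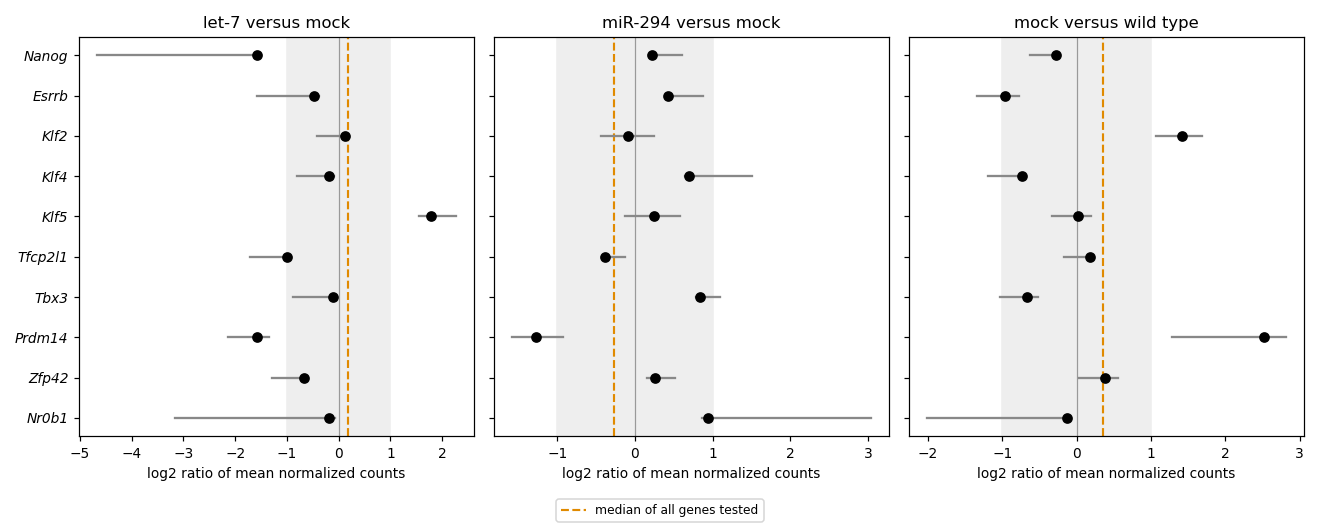
Log2 ratio of the mean normalized counts (points) of each of the 10 genes for let-7 against mock, miR-294 against mock and mock against wild type, with the range over the alternative settings as a line, the span under 2-fold in grey and the median of all 11186 genes dashed. Nanog, Prdm14 and Klf5 lay outside the grey span after let-7, Prdm14 after miR-294, and Klf2 and Prdm14 for mock against wild type.

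**Figure D4:**
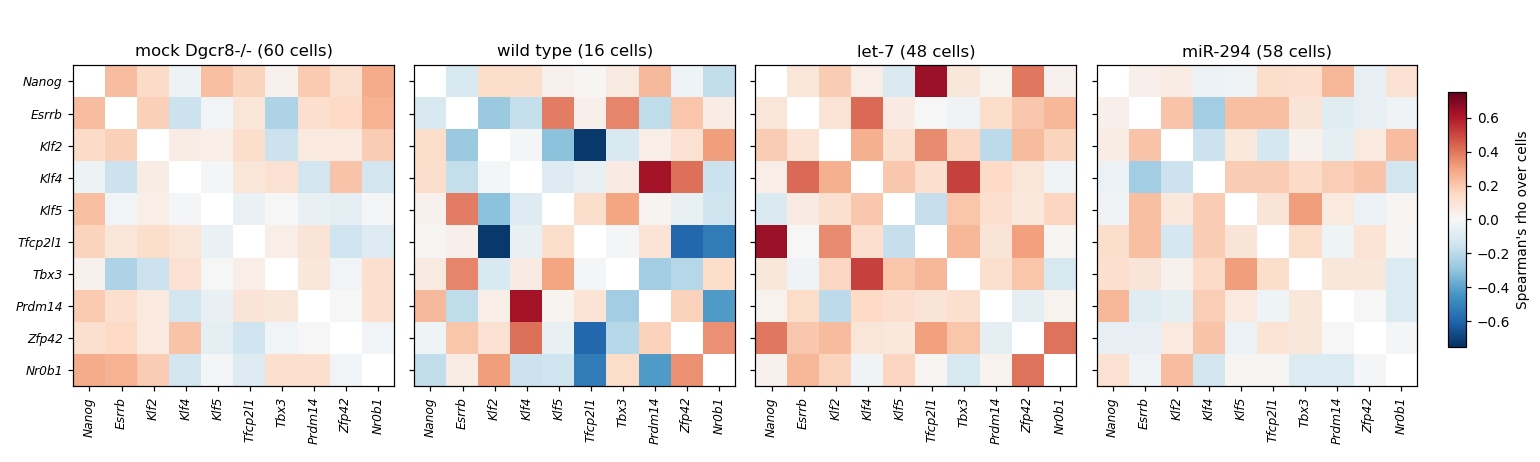
Spearman's rho over the cells of a condition for each pair of the 10 genes (colour scale from -0.75 to 0.75). The let-7 panel held the pair Nanog and Tfcp2l1 at 0.65, while no pair of the mock panel reached 0.3 by this measure, and the panel of only 16 wild-type cells scattered most widely.

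Co-variation of the 10 genes over the cells of a condition was weak. In mock cells (n = 60), rho over the 45 pairs ran from -0.23 to 0.28 with a median of 0.07, and 28 pairs were above 0 (62.2%). All pairs of tested genes had a median of 0.016 there, with 54.6% above 0. By Pearson's r of log2 values, 4 mock pairs were above 0.3, with Nanog and Esrrb the highest at 0.51. In miR-294 cells (n = 58) the range was -0.26 to 0.31 and the median 0.07. In let-7 cells (n = 48) the range was -0.20 to 0.65 and the median 0.13, with 37 of 45 pairs above 0 and 7 above 0.3. Of all gene pairs in let-7 cells, 54.1% were above 0 and 3.78% above 0.3. In wild-type cells (n = 16) the range was -0.73 to 0.62 and the median 0.02, with 6 of 45 pairs (13.3%) above 0.3, beside 14.2% of all gene pairs. The points of each condition share 1 chip and differ in depth, and rho carries no p here.

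The pair with the highest rho of any condition was Nanog and Tfcp2l1 in let-7 cells, at 0.65, and 0.64 given the number of genes counted in the cell. It was 0.65 without the 6 cells and 0.66 after thinning. The same pair was at 0.17 in mock, 0.01 in wild-type and 0.13 in miR-294 cells. Pearson's r of log2 values set the let-7 and mock cells less far apart, at 0.53 and 0.33. Whether these values differ between conditions was not tested. Next in let-7 cells came Klf4 and Tbx3 (0.51), Esrrb and Klf4 (0.42), Zfp42 and Nr0b1 (0.41) and Nanog and Zfp42 (0.40). Esrrb and Klf4 were at -0.16 in mock and -0.26 in miR-294 cells. In miR-294 cells the highest pair was Klf5 and Tbx3 (0.31).

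**Figure D5:**
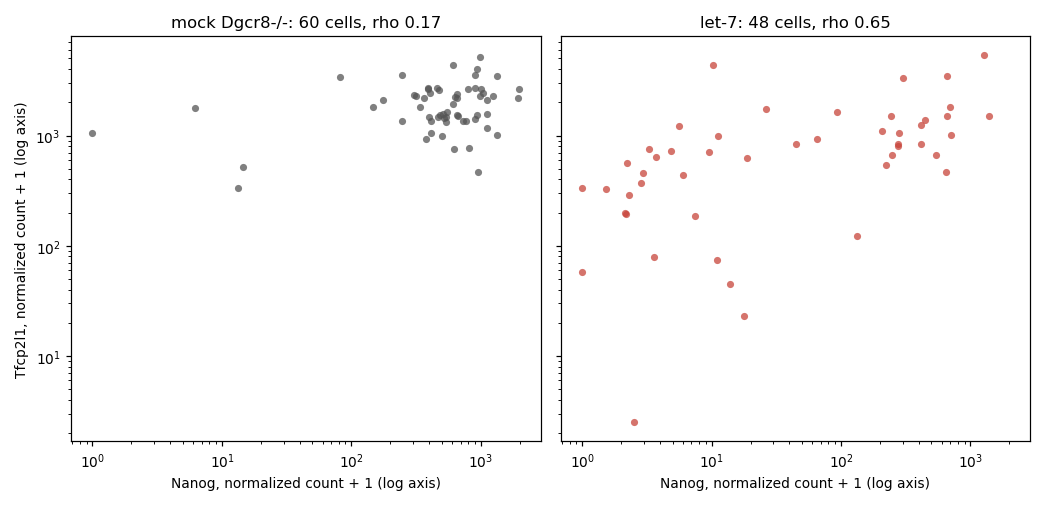
Normalized count plus 1 of Nanog against that of Tfcp2l1 (both log axes) in mock (60 cells) and let-7 cells (48 cells), with 1 point per cell. Most mock cells formed 1 cloud at high levels of both, with rho at 0.17, and the let-7 cells spread from low to high along both axes, with rho at 0.65.

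The spread of the factors over cells was described by the coefficient of variation (CV, SD divided by mean), which rises as the mean falls. In let-7 cells the CV was above that in mock cells for 9 of 10 factors, and for 49.4% of all genes. It was 1.504 against 0.64 for Nanog, 1.10 against 0.48 for Tfcp2l1 and 0.89 against 0.51 for Zfp42. Klf5, whose mean was higher, was the exception at 1.05 against 1.403. The mean of Klf2 was slightly higher too, but its CV was 0.98 against 0.85. The median CV of the 10 was 1.24 in let-7 and 0.95 in mock cells, and over all genes 1.82 and 1.81. In miR-294 cells the CV was above that in mock cells for 3 of 10 factors (Klf2, Tfcp2l1 and Prdm14) and for 35.4% of all genes, with a median of 0.76. For Nr0b1 it was 0.92 against 1.74. In wild-type cells the median was 0.89.

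Each cell was also counted for how many of the 10 it held. Of 60 mock cells, 16 held all 10 (26.7%), the median was 9 and the lowest cell held 5. All 10 were counted in 5 of 16 wild-type cells (31.2%), in 5 of 48 let-7 cells (10.4%) and in 24 of 58 miR-294 cells (41.4%). At 100 normalized counts or more, the median was 5 factors per cell in let-7 cells and 6 in each of the others, and the lowest let-7 cell had 1. No cell lacked all 10. Over the 10 factors and all cells of a condition, 81.7% of combinations were counted in let-7, 87.7% in mock, 89.4% in wild-type and 93.3% in miR-294 cells. With thinning the shares were 77.5%, 85.3%, 88.8% and 91.9%.

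Genes around the factors were grouped in lists, and each is described by its counts beside the background shares given above. All 3 core factors had a ratio below 0 after let-7, with 1 at least 2-fold lower, the zinc-finger factor Sall4 (201 against 1104 normalized counts, log2 ratio -2.45). Pou5f1 differed by -0.61 and Sox2 by -0.93. None of the 3 passed 2-fold after miR-294, and Pou5f1 was 1.39 higher in mock than in wild-type cells. Of 13 other pluripotency genes tested, 4 were at least 2-fold lower after let-7 and none higher, with the orphan receptor Nr5a2 at -2.38 and Fgf4, the growth factor that drives ERK, at -1.96. After miR-294, 1 of the 13 was at least 2-fold higher, the Akt co-activator Tcl1 (225 against 84.6 normalized counts, log2 ratio 1.401).

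Of 14 inputs and readouts of LIF, Wnt and ERK signalling, 1 was at least 2-fold lower after let-7 and 4 higher. The lower one was Tcf7l1, the repressor of several factors above (19.6 against 128 normalized counts, log2 ratio -2.64). Among the higher ones, the ERK readouts Egr1 and Dusp6 differed by 4.96 and 3.63. The other ERK readouts of the list, Etv4 among them, were under 2-fold after let-7. Egr1 was counted in 16 of 48 let-7 and 2 of 60 mock cells. After miR-294, 3 of the 14 were at least 2-fold lower, among them the LIF co-receptor Il6st (-1.40) and Stat3 (-1.10, but -0.93 without the highest mock cell), and 2 were higher (Egr1, 2.17, and Etv4, 1.32). In mock against wild-type cells, 3 were lower, among them Egr1 (-5.10) and Dusp6 (-1.97), and 5 were higher, among them Il6st (2.38), Jak1 (2.10) and Sp5 (1.31). For the lower ones, the highest of the 16 wild-type cells held 49.6% of the wild-type sum of Egr1 and 38.1% of that of Dusp6. Without the highest wild-type cell, Egr1 was at -4.21 and Dusp6 at -1.39. Etv4, also lower at -1.002, was then at -0.41, under 2-fold. Sp5 had no count in wild-type cells but averaged only 1.48 normalized counts in mock cells. Without the highest mock cell its ratio was 0.87, under 2-fold.

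Of 10 primed and formative genes, 5 could be tested. After let-7, 2 of the 5 were at least 2-fold higher, Cdh2 (3.09) and Otx2 (1.36), but Otx2 was counted in only 8 of 48 let-7 cells and was at 0.73 without the highest of them. After miR-294, 1 was lower (Otx2, -1.004), and it was at -0.45 without the highest mock cell. In mock against wild-type cells, 1 was lower (Dnmt3b, -1.76) and 3 were higher, among them Cdh2 (1.86), while Otx2 had no count in the 16 wild-type cells. Of 11 lineage genes, 4 could be tested, with 1 higher after let-7 (Gata4, 2.47, counted in 7 cells) and 2 lower after miR-294 (Grhl2, -3.34, and Mixl1, -2.03). A single mock cell with 2033 normalized counts held 83.6% of the mock sum of Grhl2, and without it the ratio was -0.92, under 2-fold. In mock against wild-type cells, 1 was lower (Eomes, -1.90) and 2 were higher, Grhl2 (3.97, or 1.54 without that cell) and Gata4, which had 1 mock cell and no wild-type cell counted. Of 6 genes of the 2-cell-like list, 5 were in the files and 3 could be tested. These 3 were at least 2-fold higher after both mimics. They passed the filter on mean count mainly through cells with a mimic, so the direction was largely set by the filter. Zscan4c was counted in 18 of 48 let-7 and 13 of 58 miR-294 cells. Zscan4d had means of 227 and 181 normalized counts after let-7 and miR-294, against 0.40 in mock cells. Zscan4c was also at least 2-fold higher in mock than in wild-type cells (means 6.41 and 0.30). A single miR-294 cell held 98.2% of the Zscan4c and 96.6% of the Zscan4d counts of its condition, and without it Zscan4c after miR-294 was at -0.16. Without the highest let-7 cell, Zscan4c and Zscan4d after let-7 were at 5.92 and 5.48, and without the highest mock cell Zscan4c was at 0.68 against wild type. The third gene, Tcstv1, was under 2-fold without the highest cell after either mimic. The list sum had a median of 0 in every condition and a highest cell of 41731 in let-7 and 27972 in miR-294 cells.

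Of the cell cycle genes, the 12 S phase genes were all below 0 after let-7, beside 40.3% of all genes, and 3 of them were at least 2-fold lower, the largest being Rrm2 (-2.31) and Cdc6 (-1.85). Their sum had a median of 2322 normalized counts in let-7 cells (188 to 8075) against 4229 in mock cells (403 to 11893). None of 12 G2 and mitosis genes was at least 2-fold lower or higher after let-7, and 9 were below 0. Their sum had a median of 1348 (80.4 to 10392) in let-7 against 2425 (52.6 to 10282) in mock cells. Between mock and wild-type cells, 2 of these 12 were lower, Cenpf (-1.46) and Ccnb1 (-1.18), and after miR-294 1 was higher, Plk1 (1.252). Within let-7 cells, Nr0b1 had a rho of 0.63 with the S phase sum, Klf4 -0.40 and Tbx3 -0.35, while Nanog had -0.04 and Tfcp2l1 -0.15. The part of the cell cycle in the levels of the factors was not tested. Correlation with total count was at most 0.34 in size in let-7, mock and miR-294 cells. In the 16 wild-type cells it was -0.55 for Prdm14 and 0.46 for Nr0b1.

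Finally, the genes most like each factor were found by the mean rho within mock, let-7 and miR-294 cells among 7348 genes counted in at least 50% of all cells. For Nanog these were Cdkn1a (0.35), Serpinb6c (0.34) and Msi1 (0.33), and the nearest of the other 9 factors reached 0.32. For Tfcp2l1 they were Dnm2 (0.36), Ulk1 (0.34) and Aqp3 (0.32). For Esrrb they were Arid5b (0.34), Epn2 (0.31) and Ap2s1 (0.28), for Tbx3 Rybp (0.34), Cul5 (0.33) and Gm14418 (0.32), and for Klf4 Rnf111 (0.31), Tmem87a (0.30) and BC003965 (0.29). Genes of the ribosome led for Klf2, with Rpl14 (0.39), Rplp1 (0.36) and Rps16 (0.35), and for Klf5, with Rps16 (0.27), Rpl37rt (0.27) and Rpl18 (0.27). For Zfp42 they included Dcaf17 (0.31) and Gm13456 (0.30). For Nr0b1 they were Spc24 (0.31), Pbk (0.30) and A230087F16Rik (0.29), and for Prdm14 Bad (0.31), Cecr2 (0.31) and Git2 (0.27). These correlations were weak, and no factor was among the 3 genes most like another, though Prdm14 was counted in too few cells to be a candidate.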

How the data were processed

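For every run, the deposited values were expected counts, which are estimated counts per gene and not normalized, and FPKM, which the authors had normalized for transcript length and depth, both from RSEM 1.2.19 with GENCODE M4 (GRCm38). The authors had removed shallow cells and transfected cells without lower targets. Here, expected counts were added up over the runs of each cell, rounded, and divided by size factors (the DESeq formula, over 862 genes present in all cells). A gene was tested if its mean count reached 5 (11186 genes). The log2 ratio is that of mean normalized counts over cells plus a pseudocount of 1, and 2-fold was the call. Shares have exact Clopper-Pearson intervals at 95%, which are binomial over the cells of 1 condition and not over reads, and reads carry no molecular identifiers. Thinning took 500000 counts per cell. No p-value was computed, since each condition was 1 sample. Alternatives used TMM factors (edgeR 4.0.16, R 4.3.3), total counts, and other filters, averages and cells. The code was tested on simulated data. Gene names and positions are from GENCODE M21, of the same build. Named genes were the 10 factors, per list and comparison at most 2 lower and 2 higher with the largest ratio past 2-fold, the 3 genes most like each factor, and checks of the labels, and 1 of the genes so named is not reported here. Gata4 and Sp5 against wild type, and the level of 100 normalized counts, were chosen after values were seen. The factors and lists were chosen with earlier results of these data known.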

Additional observations from a re-analysis of the deposited data

How the results depend on the processing

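No paired analysis was possible because run numbers in the titles mark repeat runs of 1 cell and no label ties cells of different conditions. Over the 10 factors, 3 comparisons and 14 other alternatives, 376 ratios kept their side of 2-fold, 43 newly passed it, 1 no longer passed it, and none past 2-fold changed sign. Part of the 376 could not move. Lifting the filter changes no ratio of a factor, and leaving out cells of a condition changes no comparison without that condition. Prdm14 after miR-294 was under 2-fold with pooled sums (-0.93), leaving 0 factors lower, and also without the highest mock cell (-0.96), an alternative chosen after seeing the data. Of 74 ratios past 2-fold over all lists and comparisons, 56 stayed past it without the highest cell of the condition with the higher mean, among them 5 of the 6 of the factors. For let-7 against mock, 5 factors were at least 2-fold lower with the median over cells and 5 with the geometric mean. For miR-294 against mock, the factors at least 2-fold higher were 1 with TMM factors, pooled sums, FPKM or without the 3 cells titled MIR_294 (Nr0b1 each time), 2 with total counts, thinned counts, the median over cells or, chosen after seeing the data, ratios centred on the median of all genes (Nr0b1 and Tbx3), and 3 with the geometric mean. For mock against wild type, the factors lower were 1 with TMM factors, total counts, the first run only, FPKM or thinned counts (Esrrb each time), 2 with pooled sums (Esrrb and Tbx3) or the median (Klf4 and Nr0b1), and 3 with the geometric mean or centring. Tfcp2l1 passed 2-fold lower after let-7 under 9 of 14 alternatives. The median of all genes moved with scaling, to 0.10, -0.12 and 0.20 in the 3 comparisons with TMM factors and 0.11, -0.07 and 0.15 with total counts. The causes were not tested.

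Among all genes, counts lower and higher were 1632 and 3527 for let-7 without a filter, 479 and 1149 with a pseudocount of 10, 1492 lower with the median and 1277 higher with the geometric mean. For miR-294, 1000 were lower and 132 higher with a pseudocount of 10, 1244 and 1326 with the median, 937 lower with the geometric mean, 1151 with FPKM and 1306 with thinned counts, 1157 higher without a filter and 890 when centred. For mock against wild type, 547 were lower and 1992 higher with a pseudocount of 10, 1553 lower without a filter and 1690 when centred, and 2228 higher with the median and 2132 with the geometric mean. Lower calls were 32.4%, 79.05% and 22.4% of all calls in the 3 comparisons, 44.7%, 61.9% and 39.3% when centred, 48.3%, 48.4% and 37.8% with the median and 45.6%, 55.8% and 33.2% with the geometric mean. For miR-294 they were 67.6% with total counts, 65.6% with pooled sums and 68.2% with FPKM.

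Of factor and cell combinations, at least 10 counts were found in 80.8% in mock, 68.3% in let-7 and 87.2% in miR-294 cells, and 77.5% were counted in let-7 cells after thinning. At least 100 normalized counts, a level chosen after seeing the data, were found in 54.5% in mock, 56.9% in wild-type, 44.6% in let-7 and 61.6% in miR-294 cells. The median correlation of the 45 pairs in miR-294 cells was 0.015 with Pearson's r of log2 values, and moved by at most 0.05 in the other alternatives and conditions. Leaving out the 6 cells, also chosen after seeing the data, left the factors past 2-fold as they were. With 16 wild-type cells and 1 chip per condition, shares are known only within wide intervals and differences between chips cannot be told apart from those between conditions.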
